A study of Homo sapiens with 2 samples.

Results

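Small RNA captured with Argonaute was mapped over the snRNA-class repeats of the human genome, that is, over copies of the U-rich small nuclear RNAs. The members are stacks, runs of overlapping reads on 1 strand, from a list pooled over libraries. A stack was taken when its own strand carried a repeat item of the snRNA class and it was not mitochondrial and carried no miRNA precursor, tRNA, rRNA or snoRNA item. This gave 306 of 502547 stacks, with 31184 of 68649476 reads, or 0.0454% of all reads (exact, Clopper-Pearson, 95% interval 0.0449 to 0.0459) and 0.198% of those outside miRNA precursors. Intervals cover counting error only, because the pooled list has no replicates. PCR copies of a molecule, which no identifier marks, count as separate reads, so the intervals may be too narrow even for that error.

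The study used HEK293 T-Rex cells, derived from human embryonic kidney, in which either AGO2 or AGO3 carried a FLAG tag, with 1 library per protein. Small RNA was sequenced after the tagged protein had been captured on beads. The listed samples include no capture without a tag and no RNA from before capture. RNA bound by Argonaute and RNA carried along with it thus cannot be told apart. The AGO2 library held 6674064 reads and the AGO3 library 4667236, but the stack list does not separate them, and the 2 tables that do hold miRNA precursors only. The snRNA values therefore have no replicate and no AGO2 against AGO3 comparison, and no test was made. The list holds 6.05 times the reads of both libraries, and the sources used here do not name the pooled libraries. No miRNA is known to define this line. Of 14 miRNA precursors of liver, blood, muscle and pluripotent cells, 10 were counted in AGO2 and 9 in AGO3, summing to 0.0105% and 0.0108% of the precursor counts.

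Spliceosomal snRNAs are short, abundant nuclear RNAs that carry proteins and cut introns out of messenger RNA precursors. U1 pairs with the 5′ splice site and U2 with the branch point, U4 holds U6 inactive until splicing starts, U6 forms the catalytic core and U5 aligns the exons. A minor spliceosome uses U11, U12, U4atac and U6atac with the same U5. Argonaute proteins are best known as carriers of miRNAs, and the genome holds many partial and inactive copies of snRNA genes beside the active ones.

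The repeat class is wider than the spliceosome. The families of the major spliceosome held 236 stacks and 26890 reads, 86.2% (85.8 to 86.6) of the snRNA-class reads. The other 70 stacks and 4294 reads, 13.8% (13.4 to 14.2), belonged to RNAs that do not splice. These were U3, U8, U13 and U14, which work in the nucleolus on ribosomal RNA, and U7, which trims histone messages. The label spliceosomal thus covers most of the reads but not all members. A further 11 stacks with 1057 reads also carry a snoRNA item and were set aside by the rule, led by SNORD118 (U8) with 539 reads.

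U2 and U5 led. U2 held 12096 reads in 75 stacks, 38.8% (38.2 to 39.3) of the snRNA-class reads. U5 held 9198 reads in 26 stacks, 29.5% (28.99 to 30.01). U1 followed with 4022 reads in 66 stacks (12.9%, 12.5 to 13.3) and U3 with 3533 reads in 49 stacks (11.3%, 10.98 to 11.69). The partners U4 and U6 were both low, U4 with 838 reads in 8 stacks (2.69%, 2.51 to 2.87) and U6 with 736 reads in 61 stacks (2.36%, 2.19 to 2.53). U7 had 443 reads, U14 had 197, U8 had 111 and U13 had 10. The order rests in part on 1 stack: without the one over RNU2-2, U2 held 26.4% and U5 held 35.5%. It also differs by number of stacks, since U5 made up only 8.50% of the stacks and U6 made up 19.9% of them.

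**Figure D1:**
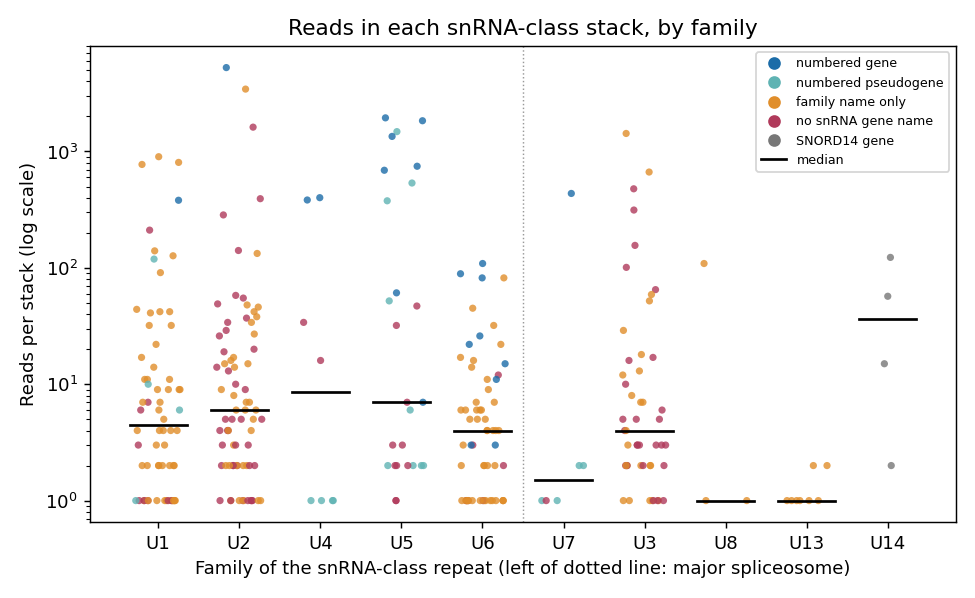
Reads per stack (vertical axis, log scale) for every member, by repeat family; each point is a stack coloured by the gene name it carries, and black lines are medians. The deepest stacks of U2, U5, U3 and U1 have 5262, 1946, 1429 and 902 reads, and the deepest U6 stack has 109.

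Most members were shallow. Of the 306 stacks, 105 (34.3%) had at least 10 reads, against 5.17% of all stacks in the list, and 35 (11.4%) had at least 100, against 0.682%. Related classes had higher shares with at least 10 reads: 51.2% of snoRNA, 50.8% of scRNA, 40.2% of rRNA and 70.8% of tRNA stacks. With at least 100 reads their shares were 12.4%, 14.9%, 6.18% and 46.9%, so only rRNA lay below the members. Single-read stacks made up 73 members (23.9%), against 73.2% of all stacks. The 201 members under 10 reads held 587 reads together, or 1.88%. The 10 deepest stacks held 64.4% (63.8 to 64.9) and the 20 deepest 82.0% (81.6 to 82.4).

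The deepest stack lay over RNU2-2, an annotated gene for U2. It had 5262 reads, 16.9% (16.5 to 17.3) of the snRNA-class reads, and covered 258 bases on the minus strand at chr11:62609024-62609281 (hg19). It also carries the name of WDR74, a gene on the same strand, with exon, intron and 5′ UTR items, so reads of U2 and of WDR74 transcripts cannot be told apart by annotation there. No stack carried the name of RNU2-1, the gene of the tandem U2 array. A missing name need not mean missing reads, since 40 U2 stacks with no snRNA gene name held 2871 reads.

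The next U2 stacks were of another shape. A stack of 3438 reads over a copy named only U2 covered 49 bases on the minus strand at chr10:103124598-103124646 and included the annotated 3′ end of that copy. Its neighbour, starting 2 bases further on at chr10:103124648-103124695, had 48 reads. Of the reads placed on this copy, nearly all thus lay at its 3′ end. The mean uniqueness value per read, explained further on, was 32.6 in the deeper stack and 1.79 in its neighbour. Reads of the neighbouring part may therefore have been placed on other U2 copies, so the split is uncertain. The U2 stack at chr2:54053028-54053056, carried no gene name for U2 and had 1619 reads within 29 bases. Shorter still was the one at chr7:74044578-74044601, with 393 reads within 24 bases. Those at chr4:159936847-159936877 and chr5:72379013-72379038 had 285 and 141 reads within 31 and 26 bases. Single-read stacks anywhere in the list spanned 15 to 33 bases, so these last 4 U2 stacks are no longer than 1 read can be.

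U5 reads came from annotated genes and from their pseudogenes. RNU5B-1 (chr15:65597015-65597164, plus strand) had 1946 reads over 150 bases, and RNU5A-1 in the same region (chr15:65588388-65588541, plus strand) had 1838 over 154 bases. RNU5E-1 on chromosome 1 had 1348 reads in a stack at chr1:11968209-11968316 that includes its annotated start, and 61 in a second at chr1:11968328-11968379 that includes its end. RNU5F-1 (chr1:45187386-45187575) had 747 reads and RNU5D-1 (chr1:45196723-45196842) had 690. These variants of U5 each gave a stack of over 100 bases.

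Among the U5 pseudogenes, RNU5A-8P (chr1:210547491-210547614) had 1482 reads, more than RNU5E-1. RNU5E-4P (chr1:11969854-11969986) had 377 reads. Numbered genes held 6637 of the U5 reads, numbered pseudogenes 2461 and copies with no snRNA gene name 100. U5 copies are alike in sequence, so the split of reads between genes and pseudogenes is uncertain.

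The deepest U1 stacks carried only the family name. The stack at chr1:147806683-147806871 had 902 reads, that at chr17:56756811-56757053, in TEX14, had 806, and that at chr1:148241465-148241589 had 774. The standard gene RNU1-1 (chr1:16840563-16840780) had 381 reads, and no stack was named for its copies RNU1-2, RNU1-3 or RNU1-4. Chromosome 1 held 2710 of the 4022 U1 reads, 67.4% (65.9 to 68.8), in 20 of the 66 stacks. Within chr1:145382757-149215301, a stretch chosen after the values were seen, 14 stacks held 2319 reads, or 57.7% (56.1 to 59.2). The pseudogene RNU1-19P, in BMPR1A at chr10:88649357-88649390, had 119 reads within 34 bases.

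The U4 genes were close in level. RNU4-2 (chr12:120729554-120729707) had 401 reads and its neighbour RNU4-1 (chr12:120730891-120731038) had 383. The stack of RNU4-2 included the annotated start and end of the gene, and that of RNU4-1 the end alone. Together they held all but 54 of the 838 U4 reads. Their uniqueness values, given further on, were low, so the split between them is uncertain.

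U6 had many stacks and few reads. The deepest, at chr19:1021517-1021627, carried the names RNU6-2 and RNU6-26 and had 109 reads. RNU6-41 had 89 reads, RNU6-1 had 82 and 15 in its 2 stacks, and RNU6-7, RNU6-8 and RNU6-9 named no stack. Of 61 U6 stacks, 16 had at least 10 reads. The deepest U6 stack held 14.8% of the family's reads, against 43.5% for the deepest U2 stack.

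Of the RNAs that do not splice, U3 held the most reads. A U3 copy in TEX11 (chrX:70066077-70066145) had 1429 reads within 69 bases, and a copy in TEX14 (chr17:56709102-56709200) had 666 within 99. RNU7-1, the U7 gene, lies with C12orf57 at chr12:7052973-7053083 and had 436 of the 443 U7 reads. A U8 copy at chr11:123172193-123172236 had 109 reads. The U14 stacks lie in introns of the chaperone gene HSPA8 and carry the names SNORD14C, SNORD14D and SNORD14E, the last with 123 reads at chr11:122928778-122928869. They are snoRNA genes by name and are members only because they lack the snoRNA item. The deepest of the 8 U13 stacks had 2 reads, at chr11:65820594-65820615 and, equally, at chr5:31824671-31824692.

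Over all members, 21 stacks with the name of a numbered RNU gene held 13860 reads, 44.4% (43.9 to 45.0). Stacks with a family name only, such as U1, were 166 and held 10035 reads, 32.2% (31.7 to 32.7). Numbered pseudogenes held 2607 reads in 21 stacks, 8.36% (8.06 to 8.67). The 94 stacks with no snRNA gene name held 4485 reads, 14.4% (13.99 to 14.78). Of 38 numbered names, 32 matched a RefSeq symbol (GRCh38.p14), 12 as snRNA and 20 as pseudogene. Names without a final P were counted as genes, and they outnumber the 12 matched as snRNA. The stacks counted as numbered genes thus include names with no RefSeq match as snRNA. Another gene was named on the same strand in 89 members with 10641 reads, so that host transcripts may add to 34.1% of the reads. No promoter sequence in the tables used here matched a member's name, and the stack list gives no letters, so no sequence is printed.

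Among the 105 members with at least 10 reads, 21 (20%) were at least 100 bases long, against 3.12% of all such stacks, and they held 18985 reads, 60.9% of the snRNA-class reads. Of these 21, 12 carried a numbered gene, going by the name alone, 3 a numbered pseudogene and 5 a family name. Short stacks of at most 40 bases numbered 53 (50.5%), against 73.2% of all such stacks, and held 4952 reads, 15.9%. None of the 53 carried a numbered gene, 3 carried a pseudogene, 26 a family name and 24 no snRNA gene name. Both lengths were chosen after the values were seen. U2 gave 21 of the short stacks and U3 gave 14, whereas U5 gave 8 of the long ones and U1 gave 7. Long stacks were not particular to this class. With at least 10 reads, the upper quartile of length was 131 bases for tRNA stacks and 89 for snRNA.

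Of the 21 long stacks, 15 carried an annotated transcript start and end, 5 carried 1 of them and 1 carried neither. Of the 53 short stacks, which are too short to span an snRNA gene, 10 carried a start or an end and 43 carried neither. An annotated start or end can also be that of a host gene. In all, 18 members with both ends held 15470 reads, 49.6%. The 227 with neither held 5831, 18.7%.

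The deposited score, an entropy by its field name with no formula stated, had a median of 1.44 in long stacks (range 0.40 to 3.19) and 0.27 in short ones (range 0 to 0.74). Its rank correlation with stack length was 0.887 over the 105 stacks, and that of length with reads was 0.562. Stacks are not independent and the score is built from the same reads, so these are descriptions. The highest score belonged to the U1 copy in TEX14. The 5 short U2 stacks with over 100 reads had 0.28 (chromosome 7), 0.45 (chromosome 2), 0.61 (chromosome 4), 0.66 (chromosome 5) and 0.67 (chromosome 9).

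**Figure D2:**
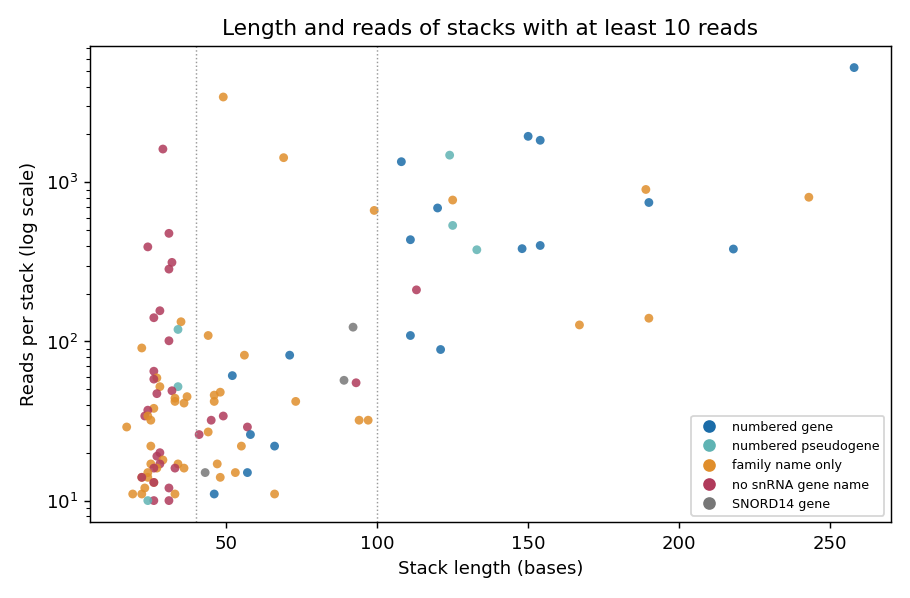
Stack length in bases (horizontal) and reads per stack (vertical, log scale) for the 105 members with at least 10 reads, coloured by gene name; dotted lines mark 40 and 100 bases. Of the stacks with a numbered gene, 12 are at least 100 bases long, up to 258 bases, and 6 lie between the dotted lines. No numbered gene lies left of 40 bases.

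A smaller share of reads lay in the deepest stack than in the related classes of small RNA. The deepest stack held 16.9% of snRNA-class reads, 71.9% of snoRNA and scaRNA reads, 42.2% of the reads of the scRNA repeat class, which holds Y RNAs, 98.7% of rRNA reads and 66.6% of tRNA reads. In reads, snRNA copies stood below all of these: snoRNAs had 136650 in 498 stacks, the scRNA class 71314 in 262, rRNA 426242 in 259 and tRNA 9524646 in 710. The share of distinct reads, by field name, was 45.1% in snRNA stacks, 15.5% in snoRNA, 14.9% in scRNA, 16.3% in rRNA and 2.55% in tRNA stacks, and this share also falls with depth. The median length of stacks with at least 10 reads was 37 bases for snRNA, 44 for snoRNA, 30 for scRNA, 29.5 for rRNA and 82 for tRNA. With libraries pooled, these differences have no test.

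**Figure D3:**
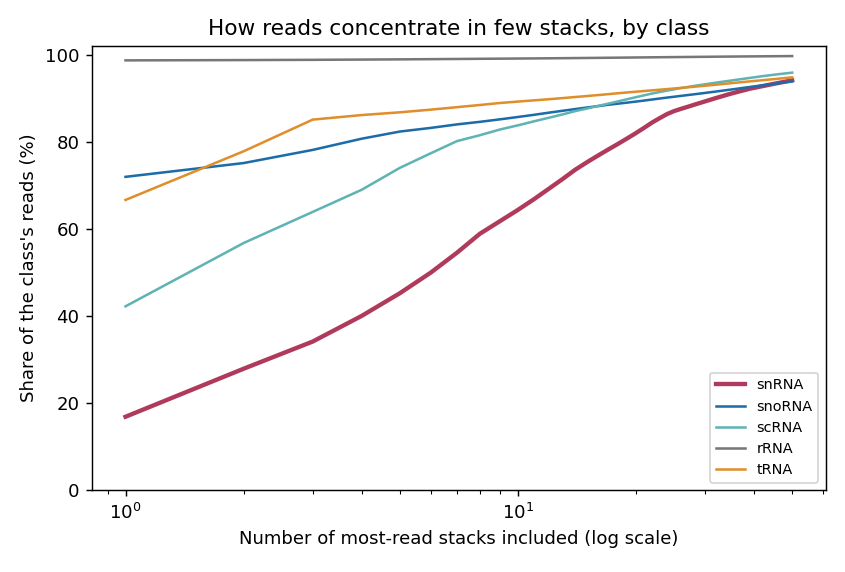
Share of a class's reads (vertical, %) held by its most-read stacks (horizontal, number of stacks, log scale) for 5 classes. The snRNA curve starts lowest, at 16.9% for 1 stack, and reaches 64.4% at 10 stacks.

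Reads lay almost wholly on the strand of the RNA. Opposite the snRNA-class repeats there were 77 stacks with 115 reads, so that 99.63% (99.56 to 99.70) of reads were on the annotated strand. Of these 77, 61 were single reads, 1 had at least 10, and 20 overlapped a member. The deepest, 14 reads, lay opposite a U6 copy at chr12:120751021-120751051 and carries the name of SIRT4 on its own strand. Next came 6 reads opposite RNU1-1 at chr1:16840761-16840784 and 4 opposite a U1 copy at chr1:148241463-148241505. Opposite U2 the deepest had 3 reads, as at chr11:60254421-60254443. Those opposite U5 and U3 had at most 2, and those opposite U4, U7 and U8 had 1 each.

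U6 had the most reads on the opposite strand, 47 against 736, which left 94.0% (92.1 to 95.6) on its own. The other major families ranged from 99.48% (U1) to 99.90% (U2). For U13 the numbers, 7 opposite and 10 own, are too small to rank (58.8%, 32.9 to 81.6). Opposite-strand stacks had a median length of 22 bases, and 67.5% were 21 to 25 bases long. Among single-read stacks that share was 68.9% opposite the repeats, 47.9% for members and 61.0% for the whole list.

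Edits, by field name the differences from the reference summed over reads, were 6179, or 0.198 per read, against 0.189 over all stacks. Without the deeper stack of RNU5E-1, which holds 19.5% of these edits, the value was 0.167, so its side of 0.189 rests on that stack. By family, U5 had 0.324 per read, U6 0.207, U1 0.203, U4 0.154, U2 0.129 and U3 0.121. The value of U5 rests on RNU5E-1: its deeper stack had 1203 edits in 1348 reads, 0.892 per read, 40.4% of the edits of U5, and without it U5 stood at 0.226. The second stack of RNU5E-1, over the annotated end, had 0.07 edits per read in 61 reads. It shares no base with the deeper stack, so the values belong to different sequence. The other U5 genes lay between, RNU5B-1 at 0.279, RNU5A-1 at 0.262, RNU5F-1 at 0.258 and RNU5D-1 at 0.125.

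At least 0.8 edits per read were found in 10 of the 105 members with at least 10 reads (9.52%), against 14.3% of all such stacks. Edits counted in the field for conversions, whose base change the sources used here do not name, were 388, and 3 stacks held 53.1% of them. A U2 copy at chr9:89037856-89037890 had 114 in 133 reads at 1 position. RNU5E-4P had 77 of its 112 edits in that field, and in RNU5E-1 15 of 1203 were. At least 0.1 conversions per read were found in 8 of 105 members (7.62%), against 2.91% of all such stacks. A U1 copy in CARS at chr11:3069685-3069706 had 91 edits in 91 reads, none of them conversions. The mean uniqueness value per read, explained further on, was 32.5 in RNU5E-1, 32.4 in the copy in CARS, 21.5 in the copy on chromosome 9 and 17.4 in RNU5E-4P. Whether such edits mark reads of other copies was not tested.

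**Figure D4:**
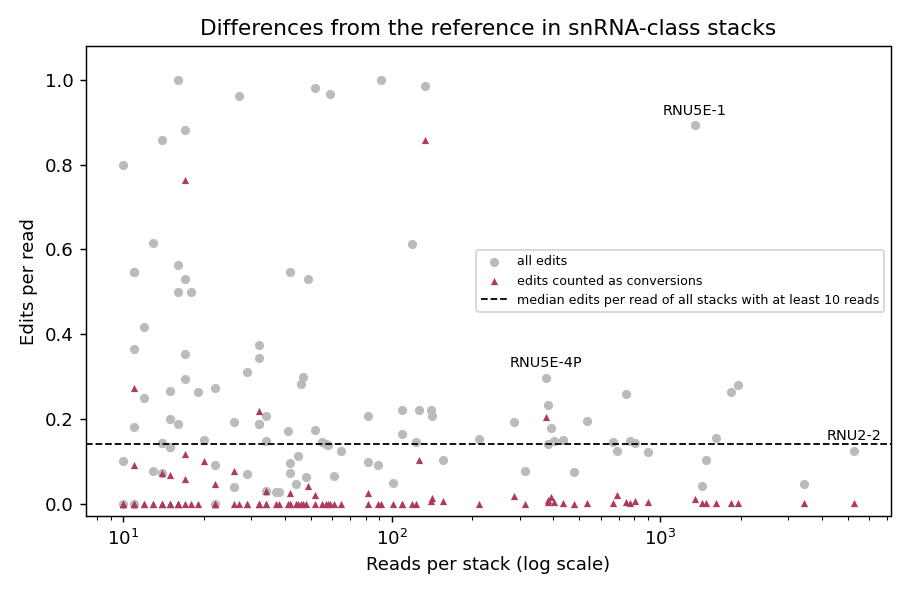
Edits per read (vertical) against reads per stack (horizontal, log scale) for members with at least 10 reads; circles are all edits, triangles those counted as conversions, and the dashed line is the median of all stacks with at least 10 reads, 0.14. RNU5E-1 stands at 0.892, and the other 7 of the 8 deepest stacks reach at most 0.279.

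The list gives each stack a sum of uniqueness values, which in single-read stacks ran from 1 to 66, and in which the label UNIQ40 stood beside values of 40 or more. By these names a high value marks a read that fits no other place as well, but its formula is not stated. Among members of 1 read without edits, the highest value was 32 at 16 bases, 40 at 20 and 50 at 25. At 20 bases with 1 edit it was 37. The value thus also varies with read length and edits, which the comparisons below do not take into account. The mean per read was 18.8 in snRNA stacks, 1.66 in rRNA, 12.6 in scRNA, 32.3 in tRNA and 33.8 in snoRNA stacks, and 30.2 in all stacks. The median over stacks with at least 10 reads was 6.21 for snRNA, close to 5.05 for rRNA, 5.23 for scRNA and 8.38 for tRNA, and it was 37.3 for snoRNA. Low values are thus shared with other multi-copy classes. It was under 10 in 67 of the 105 members with at least 10 reads (63.8%), against 15.6% of all such stacks. U6 (4.99) and U4 (5.29) were lowest among the major families, then U5 (17.1), U2 (20.6) and U1 (27.1), and U3 had 11.4.

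A mean of at least 30 was found in 17 of the 105 members, with 8926 reads, or 16.2% of them, against 62.2% of all such stacks. They comprised 7 of U1, 3 of U2, 3 of U5, 2 of U14, 1 of U3 and 1 of U7, and 0 of 4 for U4 and 0 of 16 for U6. The U1 copies in TEX14 (45.1) and at chr1:147806683-147806871 (42.7), the U2 copy on chromosome 10 (32.6), RNU5D-1 (33.4), RNU5E-1 (32.5 and 41.9) and RNU7-1 (34.8) were thus among the better placed. RNU2-2 stood at 18.0, RNU5B-1 at 6.92, RNU4-2 at 8.11, RNU1-1 at 4.06, RNU5A-1 at 2.88, RNU4-1 at 2.51 and RNU6-1 at 1.01. Counts of the latter genes may hold reads of other copies or lack reads placed elsewhere.

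**Figure D5:**
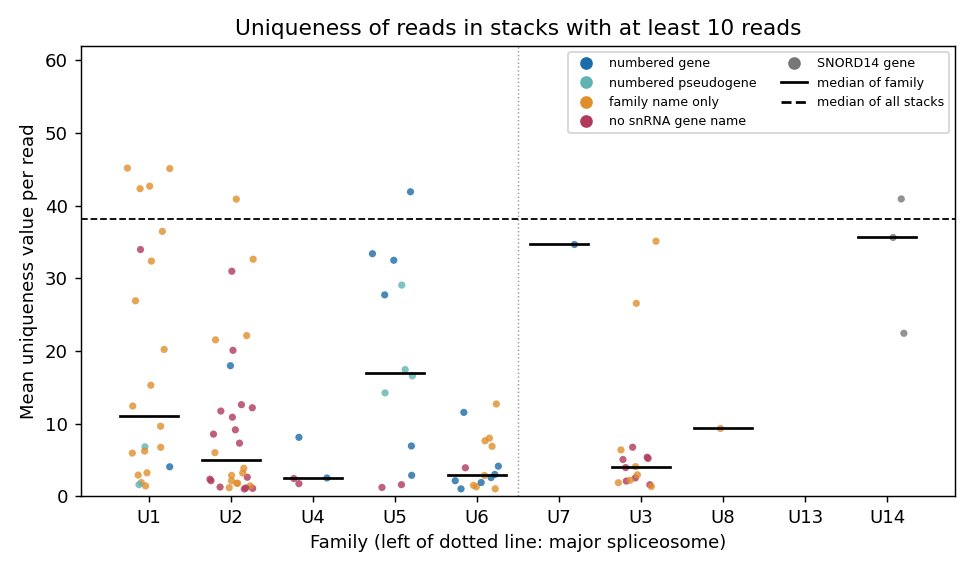
Mean uniqueness value per read (vertical) of members with at least 10 reads, by family; black lines are family medians and the dashed line is the median of all stacks with at least 10 reads, 38.2. All U4 and U6 stacks lie under 30, whereas U1, U2 and U5 reach above it.

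The minor spliceosome lies outside the rule because its genes carry no snRNA-class repeat item, yet it was present. RNU12 had 4678 reads in its deepest stack (chr22:43011250-43011447, plus strand, 198 bases), which would rank 2 among the members, and 4870 in all 3 of its stacks. The others, at chr22:43011500-43011666 and chr22:43011712-43011734, had 177 and 15 reads. They lie beyond the end of the deepest stack and were assigned to U12 by the gene name only. RNU11 (chr1:28975110-28975325) had 505 reads and RNU4ATAC (chr2:122288456-122288649) had 214. No stack was named for the active RNU6ATAC gene, and its named pseudogenes had 3 stacks of 1 read each. Together the 5 stacks held 5589 reads, 17.2% (16.8 to 17.6) of the 32479 reads of both spliceosomes. Their edits, 0.149 per read, were below the 0.209 of the major families, and their mean uniqueness was 33.7 against 19.5. The 0.209 includes the 1203 edits of the deeper RNU5E-1 stack and was not computed without it. The minor stacks were counted by gene name alone, whereas the major families include pseudogenes and copies with no gene name. The 17.2% and these comparisons thus set unlike sets side by side.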

How the data were processed

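Per the submitters' processing notes, Bowtie2 2.1.0 and build hg19 were used, in roles not stated there. The deposited stack list gives, per the file headers and fields, a count of reads per stack, an entropy score, edits, conversions and a sum of uniqueness values, with libraries pooled and no formula; the deposited miRNA tables give raw counts per precursor. Filters, strand rules and the placement of reads that fit several copies are not stated in those sources. Stack counts are thus shares of a pool, limited by counting error and by placement, and a count of 0 allows up to 3 reads.

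From these, stacks were classified by annotation, and shares with exact 95% intervals and per-read ratios were computed in Python 3.11.15 with scipy 1.17.1 and pandas 2.3.3. Family was read from the repeat name. The class rule and the interval were tested on simulated data. Named stacks are the 10 deepest, the deepest of each family on either strand, and those with an snRNA gene name and at least 100 reads (at most 20), of which 1 is not reported here; others, such as short U2 stacks and the minor spliceosome, were chosen after their values were seen. Members and lists were chosen with earlier results of these data known. Alternatives covered the rule, count minimums, weighting and the deepest stack.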

Additional observations from a re-analysis of the deposited data

How the results depend on the processing

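With every stack that carries an snRNA repeat item, snoRNAs included, the share of all reads was 0.0470%, U1 held 12.5%, U2 37.5%, U5 28.5% and the families that do not splice 16.6% of the reads, and the deepest stack 16.3%. Without the RNU2-2 stack the share of all reads was 0.0378%, U1 held 15.5%, U2 26.4%, U4 3.23%, U5 35.5%, U6 2.84% and the families that do not splice 16.6%. In that setting 99.56% of reads were on the annotated strand, the deepest remaining stack held 13.3%, and edits per read were 0.213. With each stack counted once in place of its reads, members made up 0.0609% of stacks, U1 21.6%, U2 24.5%, U5 8.50%, U6 19.9% and the families that do not splice 22.9% of members. The annotated strand then held 79.9% of stacks, 1 stack is 0.327% of the members, and the mean of edits per read was 0.405. With at least 10 reads per stack U6 held 1.98% and the annotated strand 99.95%. Outside miRNA precursors the share was 0.198%. The median length was 28 bases and the median score 0.180 with at least 2 reads, and 111 bases and 0.974 with at least 100, against 37 and 0.507 with at least 10. Each value moved through which stacks or reads enter it. Without the RNU5E-1 stack with the most edits, a setting chosen after seeing the data, edits per read were 0.167. The remaining planned values lay within the counting interval; restricting to the annotated strand or to stacks of a single family changed nothing, because every member already is both, and the share on the annotated strand has no value when restricted to it. No paired analysis was possible because each protein has 1 library and the stacks pool them. Depth limits the 201 members under 10 reads and the 115 reads of the opposite strand.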
